A study of Homo sapiens with 4 samples.

Results

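The genes described here encode carriers that move amino acids, sugars and monocarboxylates across membranes, and they were compared between MTAC-P and PC9 cells. They were chosen as a list of 41 transporter genes. A gene was measured through probe sets whose platform annotation names that gene and no other, and where it had several, the brightest one on average stood for it. Such probe sets existed for 37 of the 41, and for 18239 genes in all. The probe sets of SLC2A3 are also annotated to SLC2A14, so SLC2A3 is given no value, and SLC16A1, SLC16A3 and SLC16A6 were not analysed here. SLC6A15 and SLC43A1 were dim, with a mean below the 25th percentile of all probe sets (a log2 value of 4.14), which left 35 of 14970 tested genes.

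MTAC-P is labelled as a resistant human lung cancer line that was established by mild treatment with a tyrosine kinase inhibitor, and PC9 is an EGFR-mutant line from a human lung adenocarcinoma. For MTAC-P the labels name neither the inhibitor nor its dose nor a parental line, and both lines were grown in DMEM with serum. Total RNA was measured on 2 arrays of MTAC-P and 2 arrays of PC9, and each treatment history is represented by 1 line. Values are deposited log2 expression values, and the array medians were 4.87 and 4.88 for MTAC-P, against 4.87 and 4.85 for PC9. EPCAM, 4 keratin genes and CDH1 lay between 10.28 and 14.42 on every array, whereas the lung lineage markers NKX2-1 and NAPSA lay between 4.59 and 5.22. The 12 markers found for blood, endothelial and fibroblast cells lay between 3.59 and 5.95. In bulk RNA, fewer cells carrying a transcript and less transcript per cell cannot be told apart.

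Cells import amino acids through families of solute carriers that differ in their driving force. SLC1 and SLC38 carriers use the sodium gradient, SLC7 proteins exchange one amino acid for another and often need a heavy subunit of the SLC3 family to reach the membrane, and SLC36 carriers are coupled to protons. Glucose enters through facilitative SLC2 carriers, and SLC16 proteins carry lactate, pyruvate and related compounds. In tumour cells several of these genes follow amino acid supply through the transcription factor ATF4, and glutamine uptake and leucine import are linked to signalling through mTORC1.

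The lines were compared with limma's moderated test over all 14970 genes, with p-values adjusted by the Benjamini-Hochberg method. The largest differences in the list were a higher level in MTAC-P of the glutamate carrier gene SLC1A3 (2.67-fold) and lower levels in MTAC-P of SLC16A4 (2.31-fold) and of SLC6A14, for which no fold is given because its MTAC-P mean was under the dim value. Of the 35 tested members, 0 had a limma adjusted p under 0.05, against 0.0200% of all tested genes (0.0134% higher and 0.00668% lower in MTAC-P), so no member is said to have risen or fallen. The lowest adjusted p among the members was 0.0971, for SLC1A3. At an unadjusted limma p under 0.05 there were 10 members, or 28.6%, where 18.9% of all genes reached that level. Of these members, 2 were higher in MTAC-P, or 5.71% against 7.76% of all genes, and 8 were lower, or 22.9% against 11.1%. The 4 arrays separated the lines without overlap for 20 members, or 57.1%, against 53.2% of all genes. In 9 of them MTAC-P was higher, where 28.3% of all genes separated in that direction, and in 11 it was lower, against 24.9%. Both lower counts, the 8 and the 11, include SLC6A14, which passed the dim filter only through its PC9 level. A difference of at least 2-fold was found for 1 higher member, against 0.401% of all genes, and for 2 lower members, SLC16A4 and the dim SLC6A14, against 1.62%. The median log2 difference, MTAC-P minus PC9, was -0.08 over the members and 0.031 over all tested genes, and 15 members had a higher mean and 20 a lower mean in MTAC-P, where 53.8% of all genes were higher and 46.2% lower. The sign of the members' median turned, to 0.095 without PC9 replicate 2, to 0.00042 without MTAC-P replicate 1 and to 0.028 when every gene's probe sets were averaged. The count at an unadjusted p under 0.05 was 3 without MTAC-P replicate 2 and 5 without PC9 replicate 2.

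**Figure D1:**
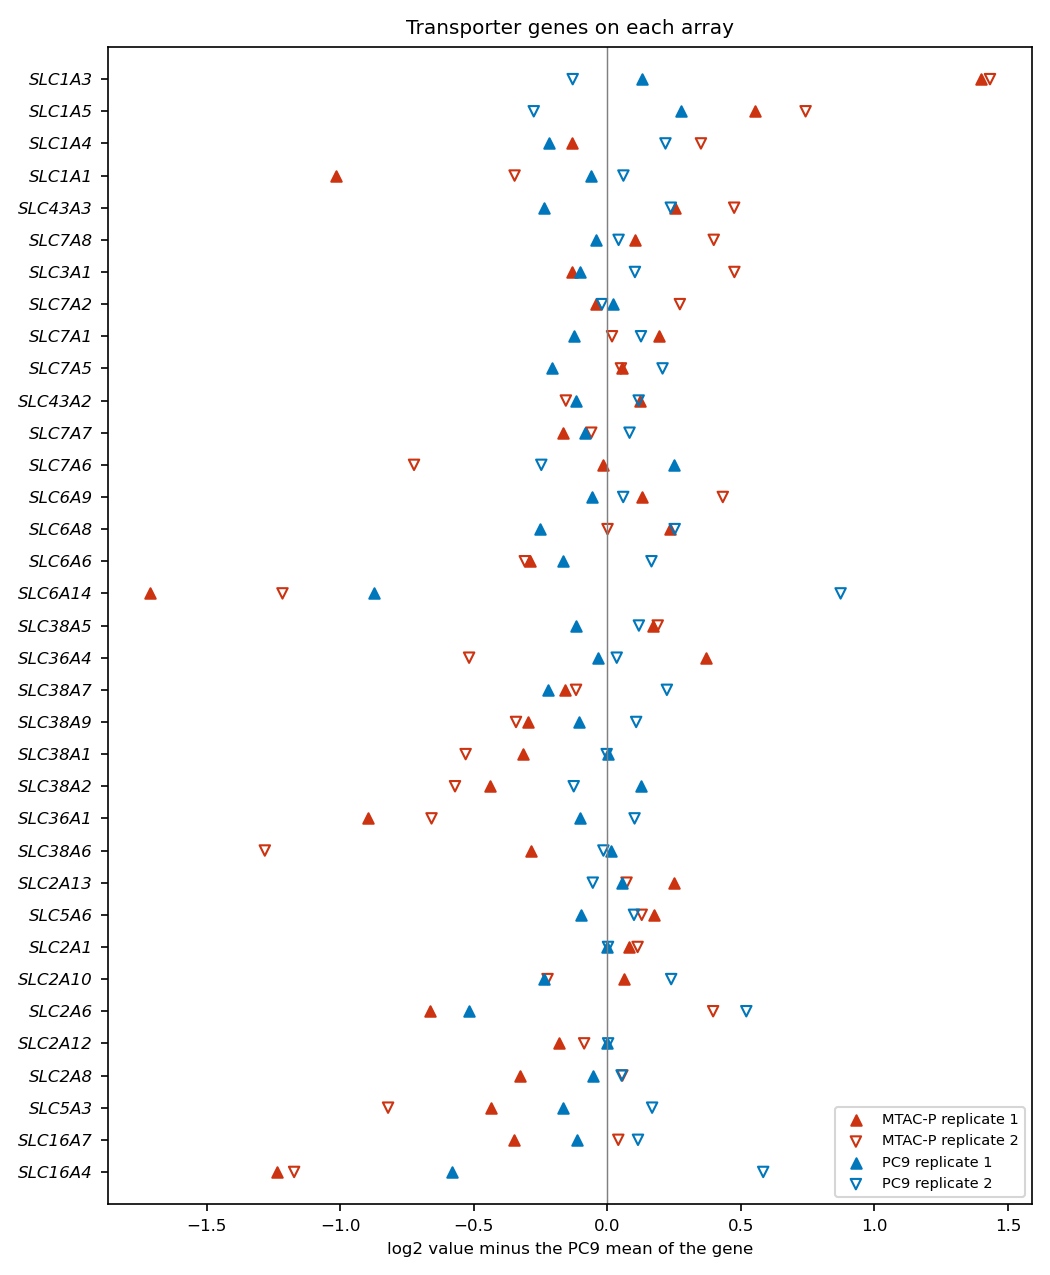
Each row is 1 of the 35 tested transporter genes, and the horizontal axis gives the log2 value of each array minus the PC9 mean of that gene. Red symbols are MTAC-P and blue symbols PC9, filled for replicate 1 and open for replicate 2. Both MTAC-P symbols of SLC1A3 stand right of its PC9 symbols, and those of SLC6A14, SLC16A4 and SLC36A1 stand left of theirs, while the PC9 arrays of SLC6A14 are 1.75 apart.

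The SLC1 genes encode carriers of acidic and of small neutral amino acids, and 3 of the 4 had an unadjusted p under 0.05, against 18.9% of all genes. SLC1A3, a sodium-coupled carrier of glutamate and aspartate best known from glia, had log2 values of 6.15 and 6.18 in MTAC-P, against 4.88 and 4.62 in PC9. Both MTAC-P arrays were higher than both PC9 arrays, and the duplicates of each line were close. The log2 difference was 1.41 (SE 0.17, 95% interval 1.01 to 1.82, limma adjusted p = 0.0971). It lay between 1.28 and 1.54 when any 1 array was left out, and limma's adjusted p was 0.0425 without PC9 replicate 1. In that fit the spread comes from the MTAC-P duplicates, and the lone PC9 array is assumed to vary like them. A second probe set of SLC1A3 above the dim value differed by 0.54 in the same direction, and 3 dim probe sets differed by -0.027 to 0.41, so the mean of all its probe sets differed by 0.49.

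SLC1A5, the exchanger through which many tumour cells take up glutamine, had log2 values of 9.02 and 9.21 in MTAC-P, against 8.74 and 8.19 in PC9. The lines did not overlap, but PC9 replicate 1 was nearer to the MTAC-P arrays than to its own duplicate. The log2 difference was 0.65 (SE 0.22, limma adjusted p = 0.205), and it was 0.37 without PC9 replicate 2. All 3 probe sets of SLC1A5 gave a higher mean in MTAC-P, by 0.37 to 0.65, without overlap. SLC1A1, a glutamate and cysteine carrier of epithelial and neuronal cells, went the other way, with log2 values of 5.42 and 6.08 in MTAC-P, against 6.37 and 6.49 in PC9. Its log2 difference was -0.68 (SE 0.24, limma adjusted p = 0.215), and -0.35 without MTAC-P replicate 1. SLC1A1 had a second, dimmer probe set, which differed by -0.089 with overlap. SLC1A4, the close relative of SLC1A5 for alanine, serine and cysteine, had overlapping arrays and a log2 difference of 0.11, which turned to -0.11 without PC9 replicate 1. Leaving out the second MTAC-P array turned it to -0.13.

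The SLC7, SLC3 and SLC43 genes encode the exchangers of large neutral and cationic amino acids and related carriers. Of the 9 tested, 0 had an unadjusted p under 0.05, against 18.9% of all genes. Arrays did not overlap for 2, or 22.2%, against 53.2% of all genes, and the median log2 difference was 0.10. SLC7A5, the leucine importer of most proliferating cells, had log2 values of 10.22 and 10.21 in MTAC-P, against 9.96 and 10.37 in PC9. The MTAC-P values lay between the PC9 values, and the log2 difference was 0.052 with a 95% interval from -0.40 to 0.51 (limma adjusted p = 0.896). SLC3A2, the heavy subunit that SLC7A5 needs, was 10.85 on both MTAC-P arrays, against 10.66 and 10.65 in PC9, a log2 difference of 0.19 (limma adjusted p = 0.526). SLC3A2 was picked with its values in view, outside the rule for named genes.

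SLC43A3, a carrier of purine nucleobases, had log2 values of 10.75 and 10.97 in MTAC-P, against 10.26 and 10.73 in PC9. The lines were separate by a margin far smaller than the gap between the PC9 arrays. Its log2 difference was 0.36 (SE 0.21, limma adjusted p = 0.391), its 4 probe sets differed by 0.33 to 0.42, and the difference was 0.13 without PC9 replicate 1. SLC7A6, which exchanges cationic for neutral amino acids, had log2 values of 7.79 and 7.08 in MTAC-P, against 8.05 and 7.56 in PC9, and the arrays of the lines overlapped. Its log2 difference of -0.37 (SE 0.28) was -0.017 without MTAC-P replicate 2, and the other 2 probe sets of SLC7A6 were higher in MTAC-P, one of them by 0.86. SLC7A8, a neutral amino acid exchanger of epithelia, was near the dim value, with 4.30 and 4.60 in MTAC-P, against 4.16 and 4.24 in PC9, a log2 difference of 0.25, or 0.10 without MTAC-P replicate 2. The arginine and lysine carrier genes SLC7A1 and SLC7A2, the lysine and arginine exporter gene SLC7A7, the heavy subunit gene SLC3A1 and the leucine carrier gene SLC43A2 had overlapping arrays.

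The SLC6 genes encode sodium- and chloride-coupled carriers. SLC6A14, which concentrates neutral and cationic amino acids in epithelia, had log2 values of 3.88 and 4.38 in MTAC-P, against 4.72 and 6.46 in PC9. Both MTAC-P arrays were lower than both PC9 arrays, and the PC9 duplicates differed by more than the means of the lines. The log2 difference was -1.47 (SE 0.53, limma adjusted p = 0.221), with -0.59 without PC9 replicate 2 and -2.34 without PC9 replicate 1, where limma's adjusted p of 0.0198 rests on the spread of the MTAC-P duplicates and on the 1 PC9 array at 6.46. Its remaining probe sets differed by -1.08 and -0.28, also without overlap. The first of these had MTAC-P values of 3.65 and 3.81, under the dim value, and the second was dim by its mean. On the brightest probe set the MTAC-P mean of 4.13 was under the dim value, so SLC6A14 was tested only through its PC9 level. It was the 1 tested member with a line mean under that value.

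SLC6A6, the taurine carrier, had log2 values of 9.98 and 9.96 in MTAC-P, against 10.10 and 10.43 in PC9. The lines did not overlap on this probe set, with a log2 difference of -0.30 (SE 0.18, limma adjusted p = 0.399) that was -0.13 without PC9 replicate 2, but the 4 other probe sets of SLC6A6 had the opposite sign and one of them differed by 0.59. SLC6A9, a glycine carrier, had 7.17 and 7.48 in MTAC-P, against 6.99 and 7.10 in PC9, a log2 difference of 0.28 (SE 0.18, limma adjusted p = 0.427). The difference was 0.13 without MTAC-P replicate 2, 0.43 without MTAC-P replicate 1 and 0.058 with the mean of all probe sets. Its arrays did not overlap, and 2 of the 4 other probe sets above the dim value had the opposite sign. The creatine carrier gene SLC6A8 overlapped between the lines.

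**Figure D2:**
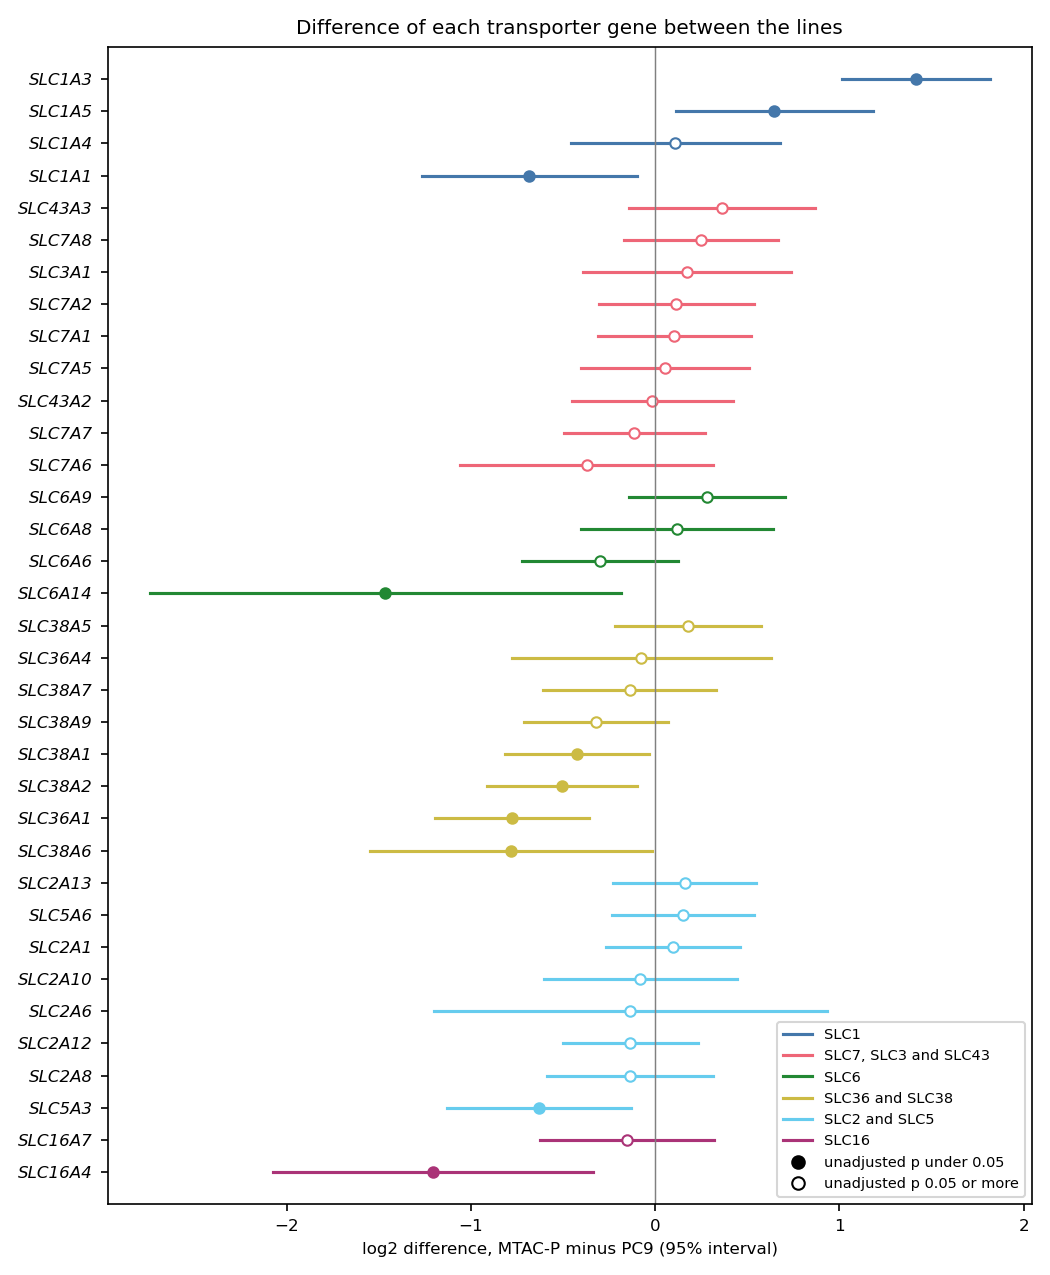
Points give the log2 difference of each tested transporter gene, MTAC-P minus PC9, and lines give its 95% interval. Colours mark the carrier families, filled points the 10 genes with an unadjusted p under 0.05. In the SLC36 and SLC38 group 4 filled points lie left of 0, and the SLC7, SLC3 and SLC43 group has none.

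Among the SLC36 and SLC38 genes, which encode proton-coupled and sodium-coupled amino acid carriers of the plasma membrane and the lysosome, 7 of 8 had a lower mean in MTAC-P, against 46.2% of all genes, and the median log2 difference was -0.37. SLC36A1, SLC38A1, SLC38A2 and SLC38A6 had an unadjusted p under 0.05, all as lower, so 4 of 8, against 11.1% of all genes. These counts rest on the brightest probe sets. For SLC36A1, SLC38A2 and SLC38A7, every other probe set above the dim value had the opposite sign. SLC38A7 differed by -0.14 on its brightest probe set, with overlapping arrays, and by 0.12 to 0.47 on the others. SLC38A1, a sodium-coupled glutamine importer, had log2 values of 10.17 and 9.96 in MTAC-P, against 10.49 and 10.48 in PC9. Both MTAC-P arrays were lower, and the PC9 arrays were nearly equal. The log2 difference was -0.42 (SE 0.16, 95% interval -0.81 to -0.035, limma adjusted p = 0.236), and it stayed between -0.53 and -0.32 when any 1 array was left out. All 5 probe sets of SLC38A1 had a lower mean in MTAC-P, by differences from -0.71 to -0.35. The arrays overlapped on the probe set at -0.35.

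SLC38A2, the related carrier that cells induce when amino acids run short or the medium turns hypertonic, had log2 values of 10.97 and 10.84 in MTAC-P, against 11.54 and 11.29 in PC9. Its arrays did not overlap, and the log2 difference was -0.51 (SE 0.17, limma adjusted p = 0.198). SLC38A2 had 2 dimmer probe sets, which differed by 0.29 and 0.15 with overlapping arrays, and the mean of its 3 probe sets differed by -0.019. SLC38A6 had 7.65 and 6.66 in MTAC-P, against 7.95 and 7.92 in PC9. The MTAC-P arrays were 1.00 apart, so the log2 difference of -0.78 (SE 0.32, limma adjusted p = 0.257) was -0.29 without MTAC-P replicate 2. It was -1.28 when MTAC-P replicate 1 was left out instead. SLC38A6 had only 1 probe set.

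SLC36A1, which exports amino acids from lysosomes together with protons, had log2 values of 6.17 and 6.41 in MTAC-P, against 6.96 and 7.17 in PC9. The lines were clearly separate on this probe set, with a log2 difference of -0.78 (SE 0.17, limma adjusted p = 0.120) that stayed between -0.90 and -0.66 when any 1 array was left out. The 5 other probe sets of SLC36A1, all above the dim value, had the opposite sign, by 0.13 to 0.35, and the mean of the 6 differed by 0.070. SLC38A9, the lysosomal arginine sensor of mTORC1, had 8.76 and 8.72 in MTAC-P, against 8.95 and 9.17 in PC9, a log2 difference of -0.32 (limma adjusted p = 0.336). Like SLC3A2 it was picked with its values in view, and its 2 other probe sets had the same sign. SLC38A5 was the 1 member of the group with a higher mean, at a level near the dim value.

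**Figure D3:**
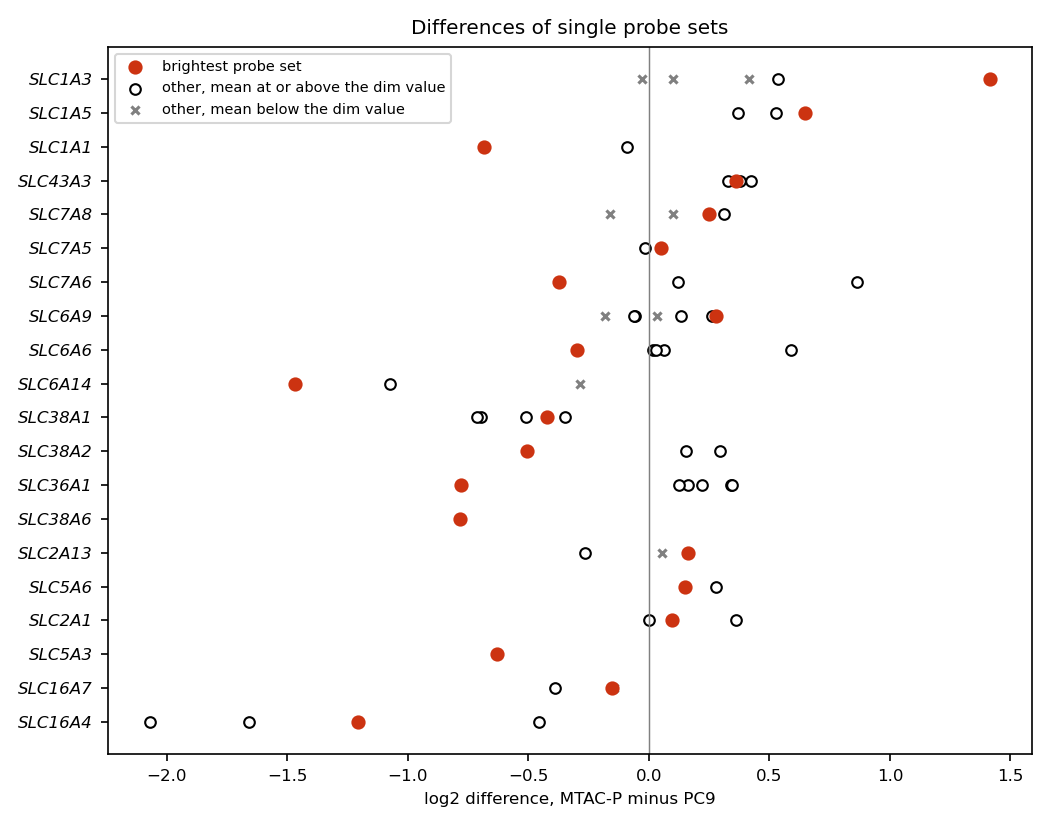
Each row is a transporter gene, and the horizontal axis gives the log2 difference, MTAC-P minus PC9, of each of its probe sets. Red points are the brightest probe sets, open points other probe sets at or above the dim value of 4.14 and grey crosses dimmer ones. The points of SLC38A1, SLC16A4 and SLC1A5 lie on 1 side of 0, whereas the red points of SLC36A1, SLC38A2, SLC6A6 and SLC7A6 lie across 0 from their open points.

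Of the 8 tested sugar, inositol and vitamin carriers of the SLC2 and SLC5 families, 1 had an unadjusted p under 0.05, or 12.5% against 18.9% of all genes. SLC2A1, the main glucose carrier of proliferating cells, had log2 values of 10.26 and 10.29 in MTAC-P, against 10.18 and 10.18 in PC9. The arrays did not overlap but the step was small, a log2 difference of 0.097 with a 95% interval from -0.27 to 0.46 (limma adjusted p = 0.756). Its 4 probe sets ranged from 0.00070 to 0.36. SLC5A3, the sodium-coupled myo-inositol carrier that responds to osmotic stress, had 6.23 and 5.84 in MTAC-P, against 6.50 and 6.83 in PC9. Both MTAC-P arrays of SLC5A3 were lower, and the log2 difference was -0.63 (SE 0.21, limma adjusted p = 0.192), or -0.44 without MTAC-P replicate 2. SLC5A3 had 1 probe set.

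SLC2A13, which carries myo-inositol with protons, had 4.40 and 4.22 in MTAC-P, against 4.20 and 4.09 in PC9. These values are near the dim value, and the second probe set of SLC2A13 above it had the opposite sign, at -0.27. SLC5A6, the carrier of biotin and pantothenate, had 11.65 and 11.60 in MTAC-P, against 11.37 and 11.57 in PC9, a log2 difference of 0.15 (SE 0.16, limma adjusted p = 0.642). Its arrays did not overlap, the difference was 0.052 without PC9 replicate 1, and its second probe set differed by 0.28. SLC2A6, SLC2A8, SLC2A10 and SLC2A12 had lower means in MTAC-P by 0.14 or less on the log2 scale.

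Of the listed members of the monocarboxylate carrier family, SLC16A4 and SLC16A7 were measured. SLC16A4, placed in the family by its sequence, had log2 values of 5.47 and 5.53 in MTAC-P, against 6.12 and 7.29 in PC9. Both MTAC-P arrays were lower than both PC9 arrays, which were 1.17 apart. The log2 difference was -1.21 (SE 0.36, 95% interval -2.07 to -0.34, limma adjusted p = 0.166), with -0.62 without PC9 replicate 2 and -1.79 without PC9 replicate 1, where limma's adjusted p of 0.0277 rests on the spread of the MTAC-P duplicates and on the 1 PC9 array at 7.29. All 4 probe sets of SLC16A4 were lower in MTAC-P on both arrays, by differences from -2.07 to -0.46. SLC16A7, a pyruvate and lactate carrier, had 4.17 and 4.56 in MTAC-P, against 4.41 and 4.64 in PC9, near the dim value and with overlap.

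The 15 tested members not given values by the naming rule had log2 differences from -0.32 to 0.18, 6 of them higher and 9 lower in MTAC-P, and the lowest unadjusted limma p among them was 0.0926. Of all 35 tested members, 27 had another probe set above the dim value. In 16 of these 27 every such probe set had the sign of the brightest one, and in 11 at least 1 had the opposite sign. A mean of the 4 arrays under 5 was found for 9 members.

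Promoter sequences of RefSeq (GRCh38.p14), from 250 bases before to 50 after a transcription start, were matched by symbol for 31 of the 35 tested members, which had 50 such windows. The letters TGATGNAA, the core of the element through which ATF4 acts on amino acid response genes, were found on either strand in 5 of the 50 windows, or 10.0%, against 2.37% of 17332 windows of all tested genes. These 5 windows belonged to SLC1A3, SLC1A4, SLC1A5, SLC7A1 and SLC38A1, so that 3 of the 4 SLC1 genes held the letters at 1 of their starts. They are shown because they place a match beside genes with different values. The log2 difference was 1.41 for SLC1A3, 0.65 for SLC1A5, 0.11 for SLC1A4, 0.10 for SLC7A1 and -0.42 for SLC38A1. Capitals mark TGATGNAA, TGACNNNGC and CACGTG on either strand, and sequences run 5′ to 3′ on the strand of the gene.
SLC1A3 promoter, chr5:36596338-36596637, plus strand: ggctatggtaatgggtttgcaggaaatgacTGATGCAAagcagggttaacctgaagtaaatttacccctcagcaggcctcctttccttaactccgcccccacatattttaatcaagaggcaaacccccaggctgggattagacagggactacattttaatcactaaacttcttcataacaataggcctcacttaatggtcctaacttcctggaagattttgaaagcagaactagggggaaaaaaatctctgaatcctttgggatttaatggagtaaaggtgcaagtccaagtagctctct
SLC1A4 promoter, chr2:64989149-64989448, plus strand: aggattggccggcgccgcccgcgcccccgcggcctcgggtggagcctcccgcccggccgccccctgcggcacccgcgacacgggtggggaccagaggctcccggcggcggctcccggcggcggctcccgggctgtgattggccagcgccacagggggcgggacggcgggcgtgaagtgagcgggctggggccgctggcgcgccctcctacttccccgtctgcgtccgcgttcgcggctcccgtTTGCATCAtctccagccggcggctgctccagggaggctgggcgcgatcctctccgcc
SLC1A5 promoter, chr19:46784765-46785064, minus strand: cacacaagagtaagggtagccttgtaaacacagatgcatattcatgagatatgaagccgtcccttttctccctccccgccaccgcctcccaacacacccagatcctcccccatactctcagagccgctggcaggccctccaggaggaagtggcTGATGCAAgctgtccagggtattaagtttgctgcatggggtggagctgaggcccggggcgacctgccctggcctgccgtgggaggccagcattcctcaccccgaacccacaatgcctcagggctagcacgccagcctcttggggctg
SLC7A1 promoter, chr13:29595639-29595938, minus strand: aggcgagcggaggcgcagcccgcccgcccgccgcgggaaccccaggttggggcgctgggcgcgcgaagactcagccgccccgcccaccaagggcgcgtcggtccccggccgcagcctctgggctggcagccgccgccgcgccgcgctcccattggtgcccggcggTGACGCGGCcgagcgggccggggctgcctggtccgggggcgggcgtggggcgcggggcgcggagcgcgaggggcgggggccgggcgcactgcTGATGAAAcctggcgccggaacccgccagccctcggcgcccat
SLC38A1 promoter, chr12:46266467-46266766, minus strand: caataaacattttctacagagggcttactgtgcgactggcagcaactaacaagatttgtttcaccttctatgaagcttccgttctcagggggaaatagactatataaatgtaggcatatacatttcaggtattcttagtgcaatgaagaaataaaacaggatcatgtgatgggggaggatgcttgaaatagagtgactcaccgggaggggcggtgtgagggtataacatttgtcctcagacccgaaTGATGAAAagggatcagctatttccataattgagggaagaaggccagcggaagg
SLC1A4 and SLC7A1 were picked with their values in view, and the sign of both turned without PC9 replicate 1. Which start each probe set reports on is not known from the sources used here.

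The E-box CACGTG, the letters bound by factors of the MYC and TFEB families, was found in 8 of the 50 windows, or 16.0%, against 8.78% of all windows. SLC36A1 held it 2 times in the window of 1 start, shown here because its protein works at the lysosome and its brightest probe set was lower in MTAC-P while 5 others were higher.
SLC36A1 promoter, chr5:151447353-151447652, plus strand: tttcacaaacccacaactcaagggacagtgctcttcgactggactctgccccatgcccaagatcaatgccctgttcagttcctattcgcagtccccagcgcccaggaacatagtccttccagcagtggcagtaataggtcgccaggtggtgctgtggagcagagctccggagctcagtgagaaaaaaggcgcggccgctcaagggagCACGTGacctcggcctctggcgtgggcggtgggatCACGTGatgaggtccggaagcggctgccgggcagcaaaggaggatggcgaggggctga
The antioxidant response core TGACNNNGC was found in 12.0% of the members' windows, against 14.1% of all windows. The hypoxia response core ACGTG, which every CACGTG contains, was found in 30.0%, against 24.0%.

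Genes around the carriers were read from lists of partners, sensors and response genes. Of the 40 other tested members of the same carrier families, 3 had an unadjusted limma p under 0.05, or 7.50%, against 18.9% of all genes. SLC2A4, the insulin-responsive glucose carrier, differed by 0.49, SLC2A11 by 0.40 and the cystine importer gene SLC7A11 by -0.93 (limma adjusted p = 0.0995). When every gene's probe sets were averaged, the differences were 0.11 for SLC2A4, 0.16 for SLC2A11 and -0.45 for SLC7A11. Among 6 tested partners and regulators 2 had an unadjusted limma p under 0.05, both lower, or 33.3% against 11.1% of all genes. None was higher at that level, against 7.76% of all genes, but 3 of the 6 had a higher mean and 3 a lower mean in MTAC-P. BSG differed by 0.38 without overlap (limma adjusted p = 0.274) and NEDD4L by 0.63 with overlapping arrays (limma adjusted p = 0.362). ARRDC4, an arrestin-like relative of the glucose uptake regulator TXNIP, had log2 values of 6.98 and 5.99 in MTAC-P, against 7.56 and 7.52 in PC9. ARRDC3, an arrestin-like adaptor, had 5.21 and 5.07 in MTAC-P, against 5.65 and 6.78 in PC9. The limma adjusted p was 0.167 for ARRDC4 and 0.192 for ARRDC3. Their differences of -1.05 and -1.08 were -0.56 and -0.51 without the array farthest from its duplicate on the side that widened them. That array was MTAC-P replicate 2 for ARRDC4 and PC9 replicate 2 for ARRDC3. With every gene's probe sets averaged, the differences were -0.57 for ARRDC4 and -0.58 for ARRDC3.

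Of 20 tested genes of lysosomal amino acid sensing, 5 were higher and 2 lower in MTAC-P at an unadjusted p under 0.05, where 7.76% of all genes were higher and 11.1% lower. LAMTOR5 differed by 0.53 and NPRL3 by 0.55, and the lower ones were LAMTOR3 at -0.73 and the Rag GTPase gene RRAGD at -0.64, none with a limma adjusted p under 0.168. LAMTOR3 was -0.36 without MTAC-P replicate 2, RRAGD was -0.28 without PC9 replicate 2 and NPRL3 was 0.34 without PC9 replicate 2. With every gene's probe sets averaged, the differences were 0.24 for NPRL3, -0.35 for RRAGD, -0.69 for LAMTOR3 and 0.53 for LAMTOR5. RRAGD had log2 values of 4.25 and 4.18 in MTAC-P, near the dim value, against 4.50 and 5.21 in PC9. Of 15 amino acid response genes, 13 had a higher mean in MTAC-P, against 53.8% of all genes. These 13 include ATF3 (0.014), ATF5 (0.022) and DDIT3 (0.056), which were nearly equal between the lines and had overlapping arrays. Arrays did not overlap for 9 of the 15, or 60.0%, against 53.2% of all genes. The list was chosen with earlier results of these data known. At an unadjusted p under 0.05, 5 of the 15 were higher, or 33.3% against 7.76%, and 0 were lower, against 11.1%. SESN2 is in both the sensing and the response list and is counted among the higher genes of each. PHGDH, whose product starts serine synthesis, had a difference of 1.14 (limma adjusted p = 0.0995) and the asparagine synthetase gene ASNS one of 1.01 (limma adjusted p = 0.143), or 0.61 without PC9 replicate 2. The median log2 difference was 0.29 in this list, 0.081 in the sensing list and 0.031 over all genes.

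For part of the members the duplicates differed in the same direction in both lines. The members' median of replicate 1 minus replicate 2 was -0.035 in MTAC-P and -0.20 in PC9. Over all tested genes it was -0.021 and 0.0026. Replicate 2 had the higher value in both MTAC-P and PC9 for 17 of the 35 members, or 48.6%, against 29.2% of all tested genes, and replicate 1 for 5, or 14.3%, against 26.8%. SLC2A6, a lysosomal hexose carrier, was an extreme case. It had log2 values of 7.63 and 8.69 on the MTAC-P arrays, against 7.77 and 8.81 on the PC9 arrays, in the order of replicates 1 and 2. SLC2A6 was likewise picked with its values in view. For ACTB, the 3' probe set exceeded the 5' one by 1.51 and 1.75 log2 units in MTAC-P, against 1.72 and 2.49 in PC9, and its part in the duplicate differences was not tested. The difference between the lines exceeded the gap between the duplicates of both lines for 11 members, or 31.4%, against 38.5% of all genes.

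**Figure D4:**
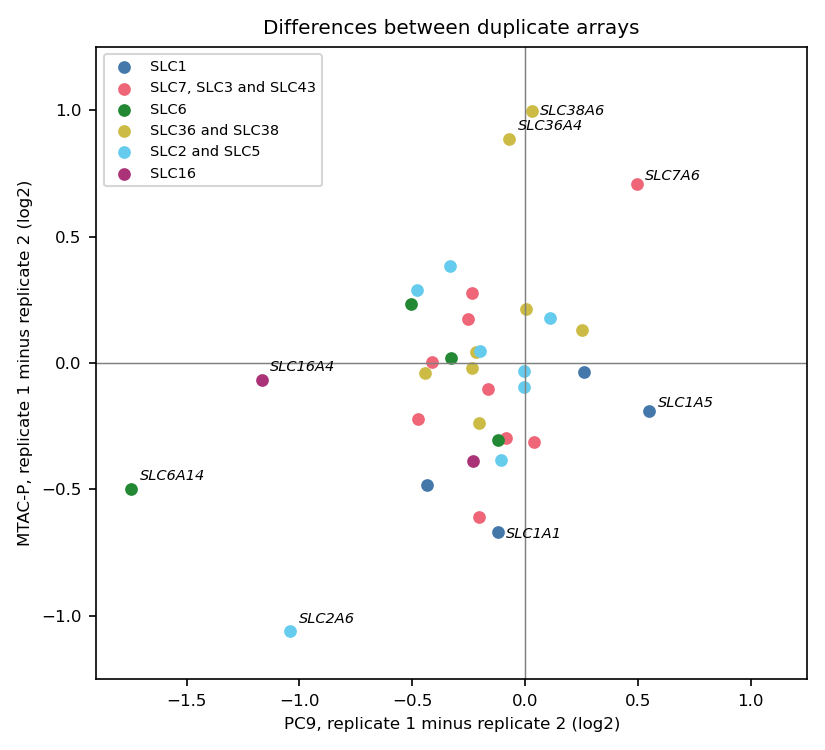
Each point is a tested transporter gene. The vertical axis gives replicate 1 minus replicate 2 of MTAC-P and the horizontal axis the same for PC9, both on the log2 scale. The 17 points left of and below 0 are genes with the higher value in replicate 2 of both lines, SLC2A6 lies at -1.06 and -1.04, and SLC6A14 has the widest PC9 gap at -1.75.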

How the data were processed

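Total RNA of 4 one-colour arrays, 2 of MTAC-P and 2 of PC9, was analysed. Per the labels' protocols, RNA was extracted with Trizol and labelled with Cy3 in an Agilent kit, and the software was Agilent Feature Extraction 10.7, per the submitters' processing notes, although the probe-set names are of Affymetrix type. The authors deposited log2 values, a scale inferred from their range of 3.32 to 14.63. Their background correction and normalization are not given in the sources used here, so the values were used as deposited.

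Of 49386 probe sets, 45253 had 1 symbol, updated to GRCh38.p14. Genes under the 25th percentile of probe-set means were left out. MTAC-P and PC9 were compared over 14970 genes with limma 3.58.1 in R 4.3.3 (2-sided, Benjamini-Hochberg at 0.05), tested on simulated data. The simulated shifts were larger than any difference among the members, and the simulated arrays shared no replicate effect. The simulation therefore does not tell how well differences of the reported size are found. The number of arrays limits the precision: an exact permutation test could not give a p under 0.333. The labels call the arrays duplicates without naming separate cultures, so p-values measure only the spread between these arrays, which may be technical. Replicate numbers were not used as a block. Replicate 1 minus replicate 2 correlated between the lines at r = 0.28 over genes, and 2 pairs do not show that the numbers pair the arrays.

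The members and lists were chosen with earlier results of these data known. Values on every array are given for the 3 members with the largest difference in each of 6 family groups, for every member with an unadjusted p under 0.05, and for SLC1A5, SLC7A5 and SLC2A1. Companion lists name up to 2 genes in each direction. Motifs were searched in RefSeq promoters. Other normalizations, filters, probe-set rules, variance models, a replicate block and leaving out each array were tried. Python 3.11.15 with matplotlib 3.10.9 drew the figures.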

Additional observations from a re-analysis of the deposited data

How the results depend on the processing

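With 2 arrays per line, 1 array often decides a value. No test here separates a difference of the lines from one of the cultures or arrays, and no detection call was available for the members near the dim value.

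Over 12 alternative settings, the number of members past limma's adjusted p of 0.05, 0 in the report, was 1 with a variance trend and 8 with the replicate number as a replicate block, and ranged from 0 to 3 when 1 array was left out. Over all genes the count of 3 became 1 with the 50th percentile filter, 0 with the mean of all probe sets, 77 with a variance trend, 0 in the unmoderated test and 2079 with the replicate block, and ranged from 0 to 68 when 1 array was left out. The block removes the difference shared by the replicate numbers, and whether the numbers mark a shared batch is not stated. It also leaves each gene 1 degree of freedom for its own spread, so its p-values rest mostly on a spread pooled over genes. The counts with the block are therefore no evidence of a shared batch. The 10 members with an unadjusted p under 0.05 became 3 in the unmoderated test and ranged from 3 to 9 with 1 array left out. The 8 lower ones became 5 with the mean of all probe sets and 1 in the unmoderated test, and ranged from 2 to 7 with 1 array left out. The 2 higher ones became 3 with the mean of all probe sets and ranged from 1 to 2 with 1 array left out. The members' median of -0.08 was 0.028 with the mean of all probe sets and ranged from -0.14 to 0.095 with 1 array left out.

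Of 426 values of single genes under the alternatives, 392 kept their direction and side of the threshold, 23 passed it newly and 11 turned sign. The filters, the variance trend, the unmoderated test and the replicate block leave a gene's difference unchanged, so no sign could turn there. The 392 are therefore no measure of stability. For 24 of these genes, leaving out 1 array moved the difference by over 1.5 times. Averaging all probe sets of a gene turned the sign for SLC7A6 (0.20), SLC6A6 (0.080), SLC36A1 (0.070) and SLC2A6 (0.0049), and it left SLC7A8 and SLC2A13 under the filter. With 1 array left out, SLC7A5 ranged from -0.15 to 0.26, SLC16A7 from -0.35 to 0.041, SLC1A4 from -0.13 to 0.35, SLC7A1 from -0.021 to 0.23 and SLC2A6 from -0.66 to 0.40. Without PC9 replicate 1 the sign turned for SLC7A5 (-0.15), SLC1A4 (-0.11) and SLC7A1 (-0.021), without PC9 replicate 2 for SLC2A6 (0.39), without MTAC-P replicate 1 for SLC16A7 (0.041) and SLC2A6 (0.40), and without MTAC-P replicate 2 for SLC1A4 (-0.13). With the block in limma, SLC1A3, SLC6A14, SLC16A4, SLC36A1, SLC38A6, SLC1A1, SLC1A5 and SLC5A3 passed, with adjusted p from 3.87e-06 to 0.0268. These p-values rest mostly on the spread pooled over genes, with 1 degree of freedom from each gene itself. The cause was not tested.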
